A study of Orbilia oligospora with 9 samples.

Results

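AOL_s00007g55, AOL_s00007g56, AOL_s00007g57, AOL_s00007g58 and AOL_s00007g59 are 5 adjacent genes of the nematode-trapping fungus Orbilia oligospora (also called Arthrobotrys oligospora), 5 of the 12901 loci in the table. They were chosen because earlier work on these data had found them lower than wild type (WT) in both mutants, and because AOL_s00007g56 is annotated as a high-affinity methionine permease. Their differences from WT are therefore given as a description, with no p-value, and where they are counted among called loci the count only places them. Only measures that the choice did not use, such as the contrast between the mutants, were tested.

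Total RNA of hyphae of strain ATCC 24927 was sequenced after 5 days on tryptone yeast glucose agar at 28 °C, with 3 libraries each of WT and of a mutant of Aomdv1 and of Aovps1. All 9 libraries are labelled as undergoing aerial hyphae differentiation. The sample labels call the mutants knockdowns, while the series' design calls them deletions, and the labels do not say whether a mutant was 1 transformant or several. The series describes the libraries as biological replicates without naming their cultures, so the spread and the p-values measure the differences between these libraries. Vps1 is a dynamin-related GTPase and Mdv1 is, in Saccharomyces cerevisiae, an adaptor of mitochondrial division.

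The gene annotated as MDV1, AOL_s00097g206, stood at 121 ± 10.5 FPKM in WT (SD, n = 3), 109 ± 23.5 in the labelled Aomdv1 mutant and 123 ± 22.6 in the labelled Aovps1 mutant. The gene annotated as VPS1, AOL_s00007g394, stood at 87.1 ± 16.7, 44.0 ± 9.95 and 37.9 ± 13.4 FPKM in the same order. Both targeted transcripts were thus still counted in their own mutants, so the mutant libraries are called here by their labels. Depth, estimated from the size of the smallest steps in FPKM, was 15650000 to 19350000 fragments per library. Libraries correlated within groups at 0.896 to 0.981 for WT, 0.863 to 0.961 for the labelled Aomdv1 mutant and 0.980 to 0.991 for the labelled Aovps1 mutant.

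Methionine permeases carry methionine across the plasma membrane. In Saccharomyces cerevisiae the high-affinity permease Mup1 is made and kept at the plasma membrane when methionine is scarce, and is taken up by endocytosis and degraded in the vacuole when methionine is plentiful. Imported methionine supplies protein synthesis, S-adenosylmethionine for methylation, and sulfur.

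The 5 genes lie on scaffold NW_011645564.1 of the RefSeq assembly AOL24927 1.0, whose coordinates equal those of the table, all on the minus strand, within 10242 bp from the start of the first to the end of the last. AOL_s00007g55 (157692 to 157982) has a gene ontology term for transmembrane transporter activity and neither a Pfam domain nor a Swiss-Prot hit. AOL_s00007g56 (158711 to 159925) carries the Pfam amino acid permease domain and a Swiss-Prot hit to yeast Mup1. Its KEGG ortholog reads phosphatidylinositol 4-kinase, which does not go with either. AOL_s00007g58 (165959 to 166978) carries a protein kinase domain, a domain of enzymes that phosphorylate proteins. AOL_s00007g57 (164797 to 165213) and AOL_s00007g59 (167019 to 167933) have no functional annotation. Between AOL_s00007g56 and AOL_s00007g57, on the plus strand, the table lists a locus without a locus tag (160597 to 163984), called here the untagged locus. It is not one of the 5 genes but is described with them because it lies inside the run. The gaps between the 6 loci are 728, 671, 812, 745 and 40 bp, so no pair overlaps.

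The methionine permease AOL_s00007g56 was abundant in WT and close to the lower limit of the table in both mutants. It stood at 76.1, 46.1 and 52.4 FPKM (fragment counts divided by gene length and by sequencing depth) in WT libraries 1, 2 and 3. It stood at 0.47, 1.21 and 0.52 FPKM in the labelled Aomdv1 mutant libraries and at 0.15, 0.44 and 0.35 FPKM in the labelled Aovps1 mutant libraries. Every WT library was thus far above every mutant library. In estimated fragments this was 1001.5 to 1752 per WT library against 3.3 to 25 per mutant library. Among all loci of a library its level ranked between percentiles 79.9 and 85.6 in WT and between 12.1 and 28.2 in the mutants. The mean was 58.2 ± 15.8 FPKM in WT (SD, n = 3), 0.733 ± 0.414 in the labelled Aomdv1 mutant and 0.313 ± 0.148 in the labelled Aovps1 mutant. On the log2(FPKM + 1) scale, which understates changes of low genes, the difference from WT was -5.09 ± 0.317 (SE) and -5.47 ± 0.317, respectively. Both mutants are set against the same 3 WT libraries, so the 2 differences are not independent.

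AOL_s00007g55, the first gene of the run, held the highest level per length. Its FPKM values were 103.7, 62.1 and 95.4 in WT, 0.79, 0.61 and 0 in the labelled Aomdv1 mutant, and 0.57, 0.36 and 1.07 in the labelled Aovps1 mutant. The mutant values correspond to an estimated 0 to 6 fragments on a gene of 291 bp, against 323 to 572 in WT. The log2(FPKM + 1) differences from WT were -5.92 ± 0.355 and -5.71 ± 0.355.

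The untagged locus, between the permease and AOL_s00007g57, stood between the 2 in WT level. It stood at 42.9, 28.0 and 39.8 FPKM in WT, at 0.12, 0.41 and 0.13 in the labelled Aomdv1 mutant, and at 0.29, 0.11 and 0.22 in the labelled Aovps1 mutant. Its log2(FPKM + 1) differences were -4.94 and -4.95. The annotation gives it a membrane term and a closest protein match to AOL_s00004g354, a gene on another scaffold (NW_011645561.1, 1206686 to 1208464) with a Pfam domain of unknown function. How the counting treated reads that fit both loci is not given in the sources used here, so the levels of the pair are uncertain to that extent. AOL_s00004g354, looked at after its values were seen, stood at 52.7, 56.8 and 122.9 FPKM in WT against 2.91 to 12.1 in the labelled Aomdv1 mutant and 3.22 to 5.81 in the labelled Aovps1 mutant. It fell by 3.26 in the first (limma adjusted p = 0.00221) and fell by 3.71 in the second (limma adjusted p = 0.00101) on the log2(FPKM + 1) scale, lower in 6 of 6 mutant libraries.

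The kinase-domain gene AOL_s00007g58 and the 2 genes without annotation were low already in WT. AOL_s00007g57 stood at 7.09, 6.71 and 25.4 FPKM in WT, 0.53, 0.54 and 1.36 in the labelled Aomdv1 mutant, and 0.68, 1.96 and 0.16 in the labelled Aovps1 mutant. AOL_s00007g58 stood at 2.30, 5.63 and 6.92 FPKM in WT, 0.57, 0.12 and 0 in the labelled Aomdv1 mutant, and 0.11, 0.99 and 0.36 in the labelled Aovps1 mutant. Neither gene's WT range overlapped a mutant range. AOL_s00007g59, the last gene of the run, stood at 1.08, 1.16 and 2.81 FPKM in WT, 0, 0.06 and 0.14 in the labelled Aomdv1 mutant, and 0, 0 and 0.06 in the labelled Aovps1 mutant. That is an estimated 18.7 to 43.7 fragments in WT and at most 2 in a mutant library. The log2(FPKM + 1) differences from WT were -2.74 and -2.72 for AOL_s00007g57, -2.21 and -1.95 for AOL_s00007g58, and -1.27 and -1.34 for AOL_s00007g59, with the labelled Aomdv1 mutant first.

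All 5 genes were lower in both mutants with no overlap of the groups. Of the 10318 loci tested, 8.56% lay below WT without overlap in the labelled Aomdv1 mutant and 13% in the labelled Aovps1 mutant. Since the genes were chosen on these differences, nothing is read from the count. All 5 passed the filter on low values (FPKM of 1 or more in at least 3 libraries) through WT. They reached that level in 3 of 3 WT libraries each, and in 0 or 1 library of a mutant. A gene that passed this way had to be lower in the mutants.

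**Figure D1:**
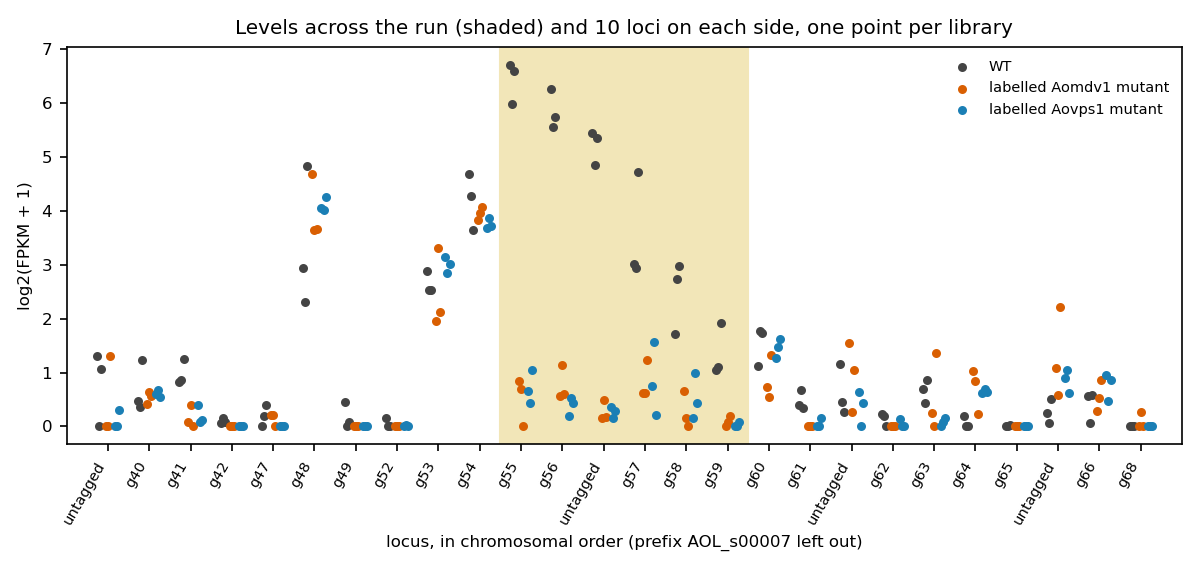
Level of each locus as log2(FPKM + 1) on the vertical axis, for the run (shaded) and 10 loci on each side in chromosomal order, with 1 point per library coloured by group. Inside the shading the 3 WT points lie above all 6 mutant points at each of the 6 loci and step down from AOL_s00007g55 to AOL_s00007g59.

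The WT levels formed a gradient along the scaffold. In 3 of 3 WT libraries the FPKM fell at each step from AOL_s00007g55 through AOL_s00007g56, the untagged locus, AOL_s00007g57 and AOL_s00007g58 to AOL_s00007g59, from a mean of 87.1 ± 22 (SD, n = 3) to 1.68 ± 0.977. Neighbours in that order were not far apart beside their spread: 58.2 ± 15.8 for AOL_s00007g56 and 36.9 ± 7.84 for the untagged locus, or 13.1 ± 10.7 for AOL_s00007g57 and 4.95 ± 2.38 for AOL_s00007g58. The order was seen in 0 of 3 libraries of either mutant, where the estimated fragments per locus were few.

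Within WT, the run split into 2 blocks by which library was high. AOL_s00007g55, AOL_s00007g56 and the untagged locus were highest in WT library 1 and lowest in WT library 2. AOL_s00007g57, AOL_s00007g58 and AOL_s00007g59 were highest in WT library 3. The permease stood at 131%, 79.1% and 90.1% of its WT mean in libraries 1 to 3, while AOL_s00007g57 stood at 54.3%, 51.4% and 194%. AOL_s00007g55 stood at 119%, 71.3% and 110%, and the untagged locus at 116%, 75.9% and 108%. At these 2 loci libraries 1 and 3 were thus close, and both lay above the mean. The highest WT library exceeded the lowest 1.67-fold for AOL_s00007g55, 1.65-fold for AOL_s00007g56 and 1.53-fold for the untagged locus, and 3.78-fold, 3.01-fold and 2.60-fold for the last 3 genes. Over all tested loci, WT library 3 was the highest of the WT libraries in 53.8% and WT library 1 in 31.7%, so the second block shows the commoner order.

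**Figure D2:**
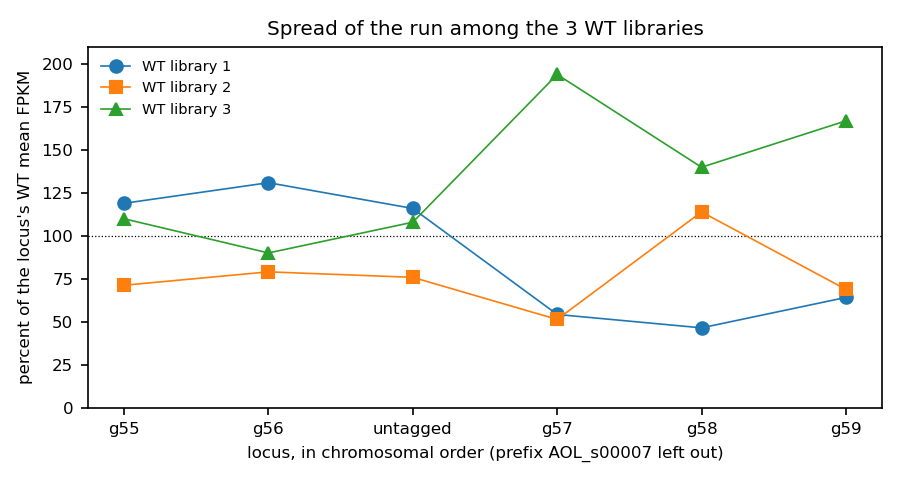
Each WT library's FPKM as a percent of the locus's WT mean (vertical axis) for the 6 loci of the run in chromosomal order, with 1 line per library. Library 1 lies above 100% for the first 3 loci and below 100% for the last 3, and library 3 reaches 194% at AOL_s00007g57.

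The deviations of the 9 libraries from their group means, which include those of the same WT libraries, showed the same blocks. Pairs among AOL_s00007g55, AOL_s00007g56 and the untagged locus correlated at 0.43 to 0.70 (Pearson r of log2(FPKM + 1)), and pairs among AOL_s00007g57, AOL_s00007g58 and AOL_s00007g59 at 0.45 to 0.78. Pairs across the blocks lay between -0.51 and 0.24. Tested loci on either side of the run reached similar values with it. AOL_s00007g56 correlated with AOL_s00007g53 at 0.71. AOL_s00007g59 correlated with AOL_s00007g48 at 0.79 and with AOL_s00007g54 at -0.85. Correlations of this size are thus not particular to the run. These are descriptions over 9 libraries that share depth and scaling between genes, and the mutant values rest on few fragments.

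The contrast between the mutants was not used to choose the genes. In it both groups lay near the lower limit of the table, since the genes passed the filter through WT, so the contrast had little room to show a difference. None of the 5 genes passed an adjusted p of 0.05 in it by limma, nor did any of the 10318 loci tested (0%). At an unadjusted p under 0.05, limma found 978 loci (9.48%) and 0 of the 5 genes. The labelled Aovps1 mutant minus the labelled Aomdv1 mutant was 0.21 for AOL_s00007g55 on the log2(FPKM + 1) scale (95% interval -0.58 to 0.99, limma adjusted p = 0.841). For AOL_s00007g56 it was -0.38 (-1.09 to 0.32, limma adjusted p = 0.652). The intervals were -1.13 to 1.17 for AOL_s00007g57, -0.59 to 1.11 for AOL_s00007g58 and -0.67 to 0.54 for AOL_s00007g59, around differences of 0.02, 0.26 and -0.06. The intervals reach 1.17 on this scale, so the test does not show the mutants to be alike. The permease was the only 1 of the 5 genes whose mutant groups did not overlap in FPKM, with every labelled Aovps1 library below every labelled Aomdv1 library. Across all tested loci 6.1% showed that order without overlap. The nearest permease values were 0.44 FPKM in labelled Aovps1 library 2 and 0.47 FPKM in labelled Aomdv1 library 1. Those are an estimated 10.1 and 9.9 fragments, so in estimated fragments the groups overlapped.

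Of the loci on either side of the run, those that passed the filter on low values were not called in either mutant. AOL_s00007g54, an F-box gene (F-box proteins pick substrates for ubiquitin ligases) that ends 1158 bp before the run, stood at 24.6, 18.4 and 11.6 FPKM in WT, at 13.3 to 16.0 in the labelled Aomdv1 mutant and at 11.9 to 13.6 in the labelled Aovps1 mutant. AOL_s00007g60, another F-box gene, which starts 2091 bp after it, stood at 1.18, 2.43 and 2.31 FPKM in WT, at 0.46 to 1.52 and at 1.42 to 2.09. The groups overlapped at both. As the values just outside the run, the log2(FPKM + 1) differences were -0.24 and -0.45 for AOL_s00007g54 and -0.67 and -0.09 for AOL_s00007g60, beside -1.27 and -1.34 for AOL_s00007g59 just inside; the ends of the run were set by these values.

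Of the 20 flanking loci, 10 on each side, 7 passed the filter, which is 35% against 80% of all loci. Limma called 0 of these 7 in either mutant, where it called 9.84% of all tested loci in the labelled Aomdv1 mutant and 13.8% in the labelled Aovps1 mutant. At an unadjusted p under 0.05 it found 1 of 7 and 0 of 7, beside 22.8% and 30.5% of all tested loci. Their log2(FPKM + 1) differences ranged from -0.67 to 1.02 in the first and from -0.68 to 0.75 in the second. The other 13 flanking loci were under the filter. Of all 20, 3 lay below WT without overlap in the labelled Aomdv1 mutant and 4 in the labelled Aovps1 mutant, and 2 lay above it in each. Of the 7 tested, 0 lay below it in either mutant, beside 8.56% and 13% of all tested loci, and 1 lay above it in each. The shares over all loci, tested or not, and of loci above WT were not computed, so nothing is read from the counts of 20. AOL_s00007g61, the second locus after the run, stood at 0.31, 0.59 and 0.27 FPKM in WT, at 0 in every labelled Aomdv1 library, and at 0, 0 and 0.12 in the labelled Aovps1 mutant. AOL_s00007g41, before the run, stood at 0.77, 0.82 and 1.39 FPKM in WT and at 0 to 0.32 in the mutants. AOL_s00007g64, named after its values were seen, stood higher in the mutants, at 0 to 0.14 FPKM in WT, 0.17 to 1.03 in the labelled Aomdv1 mutant and 0.54 to 0.62 in the labelled Aovps1 mutant. AOL_s00007g52, the third locus before the run, reached 0.12 FPKM at most. The third locus after the run (173959 to 174256) also has no locus tag. It stood at 0.20 to 1.23 FPKM in WT, 0.20 to 1.94 in the labelled Aomdv1 mutant and 0 to 0.56 in the labelled Aovps1 mutant. AOL_s00007g62, next after it, reached 0.18 FPKM at most. AOL_s00007g53, a further F-box gene, stood at 4.80 to 6.42 FPKM in WT and at 2.90 to 8.93 in the mutants. With no filter, limma called AOL_s00007g41 (adjusted p 0.0163 and 0.0181) and AOL_s00007g61 (0.0258 and 0.037) lower in both mutants, and without WT library 3, AOL_s00007g48 was called higher in the labelled Aovps1 mutant.

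**Figure D3:**
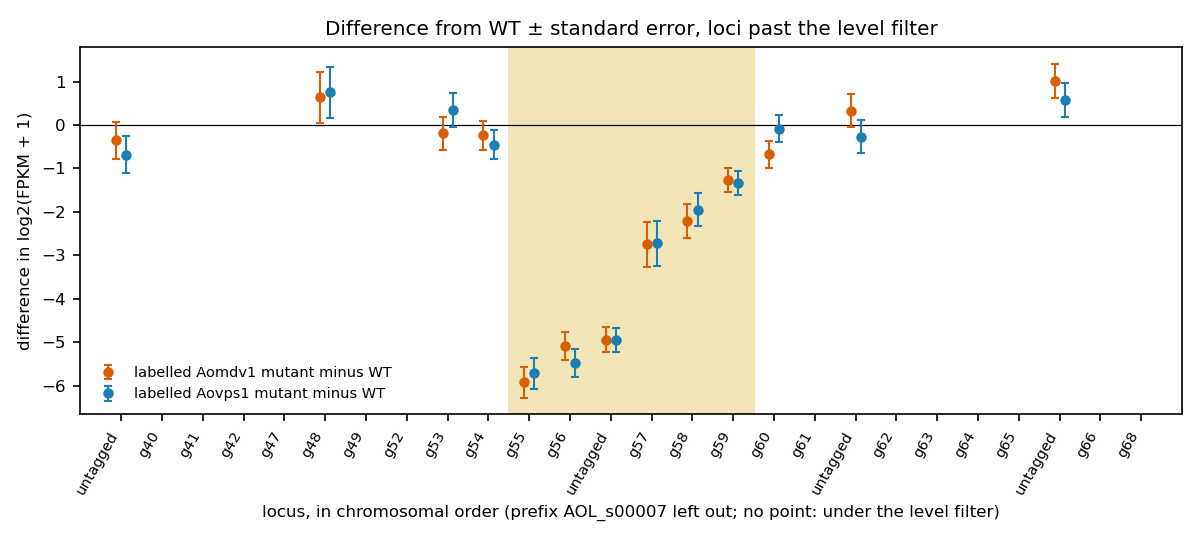
Difference from WT in log2(FPKM + 1), with its standard error, for the loci of the run (shaded) and 10 loci on each side that passed the filter on low values. The 6 shaded loci lie between -5.92 and -1.27 and the 7 tested flanking loci between -0.68 and 1.02.

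The run was the only stretch of 5 or more adjacent tested loci that limma called lower, in each mutant and in both, counting the untagged locus among its 6 loci. With only the labelled Aovps1 mutant and WT fitted there were 3 such stretches over all loci, and with a mean FPKM of 5 or more there were 0 in either mutant. Runs of 3 or more lower loci numbered 10 in the labelled Aomdv1 mutant, 19 in the labelled Aovps1 mutant and 6 in both. The longest run of higher loci was 4 in the labelled Aomdv1 mutant and 8 in the labelled Aovps1 mutant, where 5.62% and 8.61% of all tested loci were called higher. Elsewhere on the scaffold 23 of 509 tested loci (4.52%) and 26 of 509 (5.11%) were called lower, near the 4.22% and 5.21% of all tested loci. The 5 genes were chosen as such a run, so this places them and is no test of them.

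AOL_s00007g56 is 1 of 8 genes annotated as a high-affinity methionine permease. In WT it held 48.5%, 31.3% and 27.5% of their summed FPKM and ranked 1st, 2nd and 2nd among them. In the mutants it held 0.128% to 1.09% and ranked between 5th and 8th. The summed FPKM of the 8 genes was 157, 147 and 191 in WT, 104, 111 and 85.2 in the labelled Aomdv1 mutant and 117, 104 and 103 in the labelled Aovps1 mutant. Without AOL_s00007g56 the sum was 80.9 to 138 in WT, 84.7 to 110.0 and 102 to 117, and the 3 groups overlapped. Among all 30 listed amino acid permeases AOL_s00007g56 ranked 6th by mean FPKM in WT, 26th in the labelled Aomdv1 mutant and 27th in the labelled Aovps1 mutant.

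Of the other 7 genes with that annotation, 6 passed the filter. AOL_s00007g98, on the same scaffold and strand (323254 to 325176), lies 155320 bp and 45 loci beyond the run. It stood at 33.6, 53.0 and 17.8 FPKM in WT, 8.39, 7.28 and 3.56 in the labelled Aomdv1 mutant, and 2.38, 4.78 and 2.83 in the labelled Aovps1 mutant, lower in 6 of 6 mutant libraries. It fell by 2.21 (limma adjusted p = 0.0122, and 0.0558 without WT library 2) and fell by 2.96 (limma adjusted p = 0.00234). AOL_s00054g979 rose by 1.30 in the labelled Aovps1 mutant (limma adjusted p = 0.0259), standing at 5.32 to 11.7 FPKM in WT and 19.4 to 20.6 in that mutant. That call did not hold without a single labelled Aovps1 library, without WT library 1 or 2, or with quantile normalization, where the adjusted p was 0.0681 to 0.113. In the labelled Aomdv1 mutant its difference was 0.84 (limma adjusted p = 0.150, and 0.0221 without WT library 3). AOL_s00054g977, AOL_s00076g439, AOL_s00078g493 and AOL_s00215g352 were above the threshold in both contrasts with WT in the fit of all libraries. Their differences ranged from -0.57 to 1.46 and from 0.22 to 1.70. Without WT library 3, AOL_s00215g352 was called higher in both mutants (limma adjusted p 0.0315 and 0.0187). Without labelled Aomdv1 library 3, AOL_s00054g977 was called higher in that mutant (0.0276). It was also called higher when only the labelled Aovps1 mutant and WT were fitted.

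**Figure D4:**
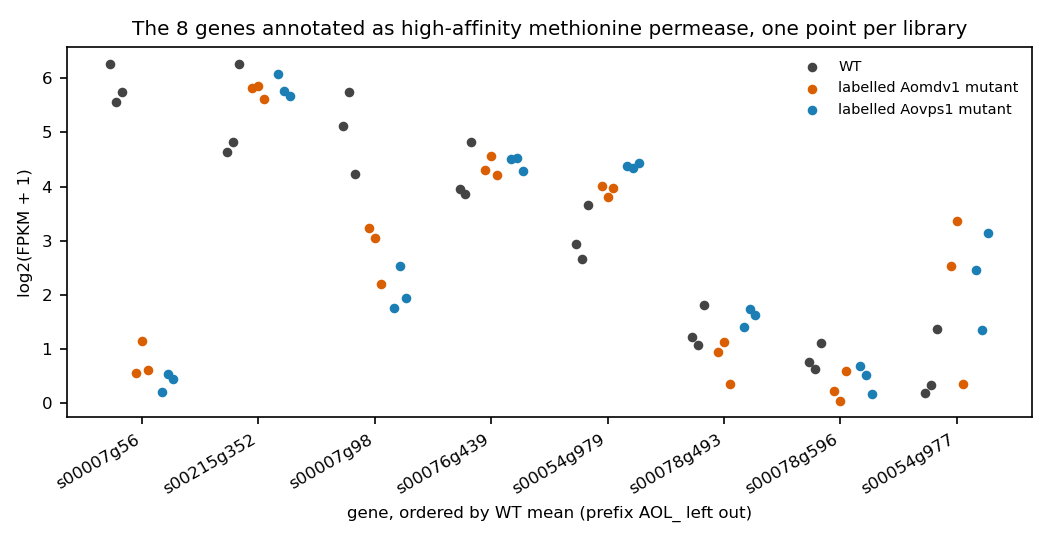
Level of the 8 genes annotated as high-affinity methionine permease as log2(FPKM + 1), ordered by WT mean, with 1 point per library coloured by group. AOL_s00007g56 and AOL_s00007g98 have all 3 WT points above all mutant points, while AOL_s00054g979 has all mutant points above its WT points.

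Among amino acid permeases other than AOL_s00007g56, limma called 5 of 25 tested lower and 0 higher in the labelled Aomdv1 mutant, and 5 lower and 1 higher in the labelled Aovps1 mutant. Without WT library 2 the lower genes numbered 3 in each mutant, without labelled Aovps1 library 1 or 2 they numbered 3 in that mutant, and when only the labelled Aomdv1 mutant and WT were fitted they numbered 2. The gene called higher was no longer called without any 1 of the labelled Aovps1 libraries. In the fit of all libraries 20% and 24% were called, beside 9.84% and 13.8% of all tested loci. The median difference of the list was -0.64 and -0.24, beside 0.08 and 0.30 over all tested loci. AOL_s00173g372, closest to yeast Agp2, a general amino acid permease, stood at 106 to 275 FPKM in WT, 27.1 to 41.6 in the labelled Aomdv1 mutant and 29.4 to 39.9 in the labelled Aovps1 mutant. It fell by 2.36 (limma adjusted p = 0.0026) and fell by 2.26 (limma adjusted p = 0.0032). AOL_s00054g294, closest to the yeast polyamine transporter Tpo5, fell by 1.92 (limma adjusted p = 0.00973, and 0.0509 when only these 2 groups were fitted) and fell by 2.59 (limma adjusted p = 0.00179). Its levels were 16.9 to 29.6 FPKM in WT and 2.30 to 7.19 in the mutants.

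Genes of the lists for methionine metabolism were called in both directions. Of the 94 genes tested in those lists and the permease list together, limma called 12 (12.8%) in the labelled Aomdv1 mutant and 18 (19.1%) in the labelled Aovps1 mutant, beside 9.84% and 13.8% of all tested loci. In the methionine cycle list 0 of 15 tested genes were called in the labelled Aomdv1 mutant, and 1 higher and 2 lower in the labelled Aovps1 mutant, with list medians of 0.12 and 0.10. The fallers were enzymes of transsulfuration, the route from homocysteine to cysteine. AOL_s00078g256, cystathionine gamma-lyase, stood at 210 to 333 FPKM in WT and 39.1 to 58.5 in the labelled Aovps1 mutant and fell by 2.42 (limma adjusted p = 0.000604). AOL_s00043g502, cystathionine beta-synthase, stood at 79.2 to 108 FPKM in WT and 23.7 to 30.2 in the same mutant and fell by 1.79 (limma adjusted p = 0.0082). In the labelled Aomdv1 mutant their differences were -1.02 (limma adjusted p = 0.0611) and -1.15 (limma adjusted p = 0.0667), and both were called with quantile normalization (adjusted p 0.0200 and 0.0162). The riser was AOL_s00006g473, closest to yeast bleomycin hydrolase, which also hydrolyses homocysteine thiolactone. It rose by 1.70 (limma adjusted p = 0.0132). Without any 1 of the labelled Aovps1 libraries or WT library 1 or 2 that p was 0.0508 to 0.0620.

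In the sulfate assimilation list, 1 of 16 tested genes was called in the labelled Aomdv1 mutant, higher, and 1 higher and 1 lower in the labelled Aovps1 mutant. That is 6.25% and 12.5% called, not above the 9.84% and 13.8% of all tested loci. The riser was AOL_s00079g139, phosphoadenosine phosphosulfate reductase, at 34.3, 37.5 and 96.3 FPKM in WT, 153 to 235 in the labelled Aomdv1 mutant and 116 to 197 in the labelled Aovps1 mutant. It rose by 1.81 (limma adjusted p = 0.0221) and by 1.46 (limma adjusted p = 0.0458). Leaving out WT library 1 or 2 ended both calls (adjusted p 0.0862 and 0.0990, and 0.140 and 0.169). So did leaving out labelled Aomdv1 library 1 for the first (0.0780) and any 1 labelled Aovps1 library for the second (0.103 to 0.168). The second call was also lost with median-ratio scaling (0.0872), quantile normalization (0.0646), no filter (0.0577) and a replicate block (0.0719). The faller was AOL_s00079g152, sulfate adenylyltransferase, which activates sulfate, at 84.5, 253 and 296 FPKM in WT and 28.7 to 67.4 in the labelled Aovps1 mutant. It fell by 2.19 (limma adjusted p = 0.0169), with 0.0767 to 0.0799 without labelled Aovps1 library 1 or 3 or WT library 2. None of the 5 genes of methionine salvage, which recycles the methylthio group, was called in a mutant in the fit of all libraries. Without WT library 3, 2 of the 5 were called higher in each mutant. In that setting 1018 and 1614 of the 10318 tested loci were called higher, against 580 and 888 with all libraries.

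In the KEGG map of cysteine and methionine metabolism, 3 of 53 tested genes were called higher and 3 lower in the labelled Aomdv1 mutant, and 3 and 6 in the labelled Aovps1 mutant. That is 11.3% and 17% called, near the shares of all tested loci. AOL_s00215g295, an aromatic amino acid aminotransferase, stood at 47.0 to 125 FPKM in WT and 3.34 to 9.28 in the mutants and fell by 3.40 (limma adjusted p = 0.001) and fell by 3.69 (limma adjusted p = 0.000539). AOL_s00173g53, counted among the lower genes, stood at 1.78 to 2.45 FPKM in WT and 0.04 to 0.43 in the mutants. It passed the filter only through WT and so had to be lower in the mutants. Its differences, -1.37 and -1.27, are therefore a description. AOL_s00007g411 rose by 1.60 (limma adjusted p = 0.01) and by 1.56 (limma adjusted p = 0.0105). The KEGG name of AOL_s00173g53, adenosylhomocysteinase, does not go with its Pfam domain, that of an uncharacterised protein family. AOL_s00007g411 has the KEGG name S-adenosylmethionine synthetase and a Pfam RmlD substrate binding domain. AOL_s00075g182, the free methionine-R-sulfoxide reductase, which reduces oxidised methionine, rose by 1.88 (limma adjusted p = 0.0208) and by 2.11 (limma adjusted p = 0.0104). Its levels were 4.75 to 17.5 FPKM in WT and 25.8 to 50.5 in the mutants. The first of these calls was lost without labelled Aomdv1 library 1 or WT library 1 or 2 (adjusted p 0.0661 to 0.0748), and the second without labelled Aovps1 library 3 (0.0521). Those of AOL_s00007g411 reached 0.0502 to 0.0579 without labelled Aovps1 library 1 or 2 or WT library 2 in the second mutant.

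AOL_s00007g58 belongs by its domain to the protein kinases. Of 97 others tested, limma called 1 higher and 2 lower in the labelled Aomdv1 mutant (3.09%), and 10 higher and 1 lower in the labelled Aovps1 mutant (11.3%), beside 9.84% and 13.8% of all tested loci. Their median difference was -0.03 and 0.58, beside 0.08 and 0.30. The balance in the labelled Aovps1 mutant depended on the scaling, with 3 higher and 4 lower under median-ratio scaling and 4 and 5 under quantile normalization. Leaving out 1 library gave 1 to 17 higher and 1 to 3 lower, with 17 higher without WT library 3 and at most 2 without any other library. AOL_s00007g58 stood at -2.21 and -1.95 on the same scale.

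Over the 9 libraries the loci most like AOL_s00007g56 by Pearson correlation of log2(FPKM + 1) were the untagged locus (0.9956), with 0 loci above it, and outside the run the hydrophobin gene AOL_s00006g570 (0.9951). Hydrophobins coat the surface of aerial hyphae and spores. AOL_s00076g404 (0.9924), AOL_s00188g284 (0.9915), AOL_s00210g273 (0.9888) and AOL_s00007g163 (0.9883) followed. AOL_s00007g55 reached 0.9892, and AOL_s00007g59, AOL_s00007g57 and AOL_s00007g58 reached 0.9216, 0.8948 and 0.8906. In all, 103 loci lay above 0.95, so many loci that are high in WT and low in both mutants share this pattern, which the choice of the genes fixed.

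Of 2 lists drawn by words for spores and for contact with nematodes, some genes were lower in the same libraries as the run. The first list held 8 genes named for hydrophobins, conidia, spore walls or rodlets. Their summed FPKM was 1527 to 2182 in WT, 95.5 to 171 in the labelled Aomdv1 mutant and 81.0 to 115 in the labelled Aovps1 mutant. Limma called 1 and 2 of the 7 tested lower and 0 higher, where 4.22% and 5.21% of all tested loci were called lower. AOL_s00080g63, not called, stood above WT without overlap, at 3.47 to 3.96 FPKM in WT, 4.14 to 6.15 and 4.04 to 6.01. AOL_s00210g72, which was under the filter, stood at 0 in all labelled Aomdv1 libraries. It stood at 0.49, 0 and 0 FPKM in WT and at 0.13, 0 and 0 in the labelled Aovps1 mutant, so the groups overlapped. Without AOL_s00006g570 the sum was 129 to 274 in WT, 95.4 to 169 and 81.0 to 115, and the WT range overlapped that of the labelled Aomdv1 mutant. The summed FPKM of 8 genes named for lectins, cuticle degradation or GLEYA adhesion was 5056 to 16330 in WT, 543 to 736 and 359 to 452, with 4 of 7 tested lower in each mutant and 0 and 1 higher. Without AOL_s00080g288, its most abundant gene, the sum was 295 to 606 in WT, 84.5 to 228 and 248 to 291. No gene of that list was at 0 in a whole group. The part of these genes in the fall of the run was not tested. In bulk RNA, fewer cells of a type and less RNA per cell cannot be told apart.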

How the data were processed

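The authors deposited 1 table of FPKM for 12901 loci in 9 libraries, rounded to 2 decimals, with coordinates and annotation. The aligner, the counting program, its use of strand and the gene length used were not stated in the labels or the table. Fragments per library were estimated by seeking, between 8000000 and 25000000, the depth at which loci under 700 bp gave whole fragments within 0.1 (68.5% to 74.7% of values, 80 values in labelled Aomdv1 library 3 and 364 to 425 in the others). Fragments per locus then assume the genomic span as its length.

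The 10318 loci that reached FPKM 1 in 3 or more libraries were tested by limma 3.58.1 in R 4.3.3, on log2(FPKM + 1) with a trend. All 9 libraries entered 1 fit of 3 groups, two-sided, with Benjamini-Hochberg adjustment over all tested loci and a threshold of 0.05. The fit was tested on simulated data. Lists were drawn by words in the annotation. Named were the 5 genes, the 3 nearest loci on each side and flanking loci called, the other methionine permeases, up to 2 risers and 2 fallers per list and mutant by adjusted p, and the 5 loci outside the run most like AOL_s00007g56. AOL_s00004g354 was named after its values were seen. The genes, lists and tests were chosen with earlier results of these data known. The alternatives are given in the closing section. Promoter motifs were not searched.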

Additional observations from a re-analysis of the deposited data

How the results depend on the processing

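The mutant minus WT values of the 5 genes were below 0 in 124 of 124 alternatives (-7.74 to -0.99). The choice of the genes fixed that sign, so the count is a description and no test of the fall. The contrast between the mutants called none of them in 62 of 62 (limma adjusted p 0.516 to 1). Both mutants lay near the lower limit there, so this does not show them to be alike. With a pseudocount of 0.1, the differences in the labelled Aomdv1 and Aovps1 mutants were -7.74 and -6.90 for AOL_s00007g55, -6.20 and -7.18 for AOL_s00007g56, -4.23 and -3.28 for AOL_s00007g58 and -3.38 and -3.80 for AOL_s00007g59, and -3.85 in the labelled Aovps1 mutant for AOL_s00007g57. Under a mean FPKM of 5 or more only AOL_s00007g55, AOL_s00007g56 and the untagged locus of the run were tested, and in a fit of only the labelled Aomdv1 mutant and WT the run ended at AOL_s00007g58. In the other settings it held 6 loci.

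Fitting only the groups compared, limma called 508 loci in the labelled Aomdv1 mutant and 2483 in the labelled Aovps1 mutant, against 1015 and 1426, and 4 and 29 genes of the methionine, sulfur and permease lists, against 12 and 18. That fit also ended the labelled Aomdv1 calls of AOL_s00079g139 (adjusted p 0.0665), AOL_s00075g182 (0.0871) and AOL_s00007g411 (0.0570). Without filter limma called 2 flanking loci in each mutant, and 1 locus between the mutants, as with median-ratio scaling (1). Leaving out 1 library gave 631 to 1530 and 622 to 2262 loci, 0 to 24 between the mutants, 7 to 27 and 9 to 32 list genes, and 0 to 1 flanking loci. The lower share of calls was 42.9% and 37.7%, with median-ratio scaling 51.3% and 57.4%, with quantile normalization 47% and 51.5%, and without WT library 3 33.5% and 28.6%. Median-ratio scaling moved the median difference of all loci from 0.30 to 0.0 in the labelled Aovps1 mutant. The labels do not say whether library numbers pair the samples. Deviations of same-numbered libraries correlated at -0.283 to 0.387, over 0.1 in 3 of 9 pairs. That showed no steady pairing, but 3 libraries per group are too few to exclude it. With a replicate block 894, 1178 and 0 loci were called. Depth limits the mutant levels of the run, which rest on few fragments.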
